A study of Mus musculus with 16 samples.

Results

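The genes described here encode the nuclear subunits of the mitochondrial respiratory chain, with the assembly factors that share their names. They were taken as the protein-coding genes whose symbols start with Ndufa, Ndufb, Ndufc, Ndufs, Ndufv, Sdh, Uqcr, Cox4, Cox5, Cox6, Cox7, Cox8 or Atp5, which gave 98 of the 35647 genes in the deposited table. By complex, 36 belonged to complex I, 4 to complex II, 8 to complex III, 20 to complex IV and 17 to complex V. A further 12 were assembly factors of complexes I and II (Ndufaf1 to Ndufaf8 and Sdhaf1 to Sdhaf4), and Atp5s, named for a coupling factor, stood alone. In all, 92 passed the filter on low counts in every fit. The other 6 were the muscle-type isoforms Cox6a2, Cox7a1 and Cox8b, the testis-type isoforms Cox7b2 and Cox8c, and a second entry for Atp5o, the last 3 of them at 0 counts in all libraries.

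Bulk RNA sequencing had been done on lamina propria cells, the mixed immune cells beneath the gut epithelium, enriched on a Percoll gradient of 40% and 80%. The mice were of wild-type genotype and born germ-free, and had carried 1 bacterium for 5 weeks: either a Δchat strain of *Bifidobacterium breve*, which does not make acetylcholine, or the WT strain. The 4 groups were ileum Δchat, ileum WT, colon Δchat and colon WT, with 4 libraries each from 4 mice per strain; age and sex were not used here. Library totals ran from 15.9 to 23.6 M estimated counts (M, mega). Levels are given as CPM, the counts of a gene per 1 M counts, after scaling of all 16 libraries to each other. Differences are log2 fold changes ± standard error from edgeR, called at a Benjamini-Hochberg adjusted p under 0.05 over all genes tested.

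The respiratory chain moves electrons from NADH (complex I) and succinate (complex II) through ubiquinone, complex III and cytochrome c to oxygen at complex IV. The energy released pumps protons across the inner mitochondrial membrane, and complex V uses their return to make ATP. All complexes except complex II also hold subunits encoded in mitochondrial DNA, so that 2 genomes have to be expressed together. In gut immune cells, demand on the chain differs between resting, activated and antibody-secreting cells, and enterocytes are rich in mitochondria.

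The sequence upstream of the start was available for 75 of the members tested (RefSeq, GRCm38.p6), and those of 3 genes that passed a test below are shown, with the last 150 bases before the annotated start, 5′ to 3′. Capitals mark an exact match, on either strand, to CGCATGCG, the core of the site of NRF1, a transcription factor known for driving respiratory chain genes.
Sdhaf1, chr7:30322376-30322525, minus strand: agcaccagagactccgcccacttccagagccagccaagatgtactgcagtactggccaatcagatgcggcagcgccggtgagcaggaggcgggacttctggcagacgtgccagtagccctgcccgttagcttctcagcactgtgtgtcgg
Ndufaf4, chr4:24897933-24898082, plus strand: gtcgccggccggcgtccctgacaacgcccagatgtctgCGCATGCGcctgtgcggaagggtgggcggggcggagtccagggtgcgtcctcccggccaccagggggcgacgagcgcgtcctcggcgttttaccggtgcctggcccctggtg
Ndufa4, chr6:11907451-11907600, minus strand: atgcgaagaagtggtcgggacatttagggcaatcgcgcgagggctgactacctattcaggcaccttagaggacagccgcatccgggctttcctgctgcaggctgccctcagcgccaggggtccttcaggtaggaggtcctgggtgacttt
Over the whole 250 bases upstream, CGCATGCG was present in 8 of 75 members (10.7%) and in 1.75% of all 27025 promoters in the table. The members with it were Atp5g2, Atp5j, Atp5k, Atp5l, Cox6a1, Ndufa11, Ndufa8 and Ndufaf4. CCGGAAG, the core of the site of the ETS factor GABPA, was in 16 of 75 members (21.3%) and in 7.83% of all promoters. AAGATGGC, for YY1, was in 1.33% of members and 1.83% of all, and AAGGTCA, for ESRRA, in 6.67% of members and 4.70% of all. Both strands were searched. CCGGAAG ends in the AAG with which AAGATGGC and AAGGTCA begin, so matches to these can overlap. A match describes the letters alone. Of the genes printed, only Ndufaf4 held a match in the 150 bases shown.

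Transcript levels of each complex were close in 15 of the 16 libraries. In these the 36 complex I genes had a mean log2 CPM between 4.62 and 4.88, the 8 complex III genes between 5.30 and 5.52, and the 16 complex V genes tested between 5.99 and 6.24. The exception was colon Δchat replicate 3, where complex I stood at 5.18, complex III at 6.12 and complex V at 6.65. The 5 complexes were 0.55 to 0.78 above the mean of the other 3 colon Δchat libraries there, on the log2 scale, and 71 of the 92 members tested had their highest value of all libraries in it. All genes tested had theirs there in 14.2% of cases. The 12 assembly factors did not share the rise: their mean of 2.95 lay within the 2.62 to 3.08 of the other libraries, and 0 of 12 peaked in that library. Of sets outside the naming rule, 42 other assembly factors stood at 3.69 in it, against 3.40 to 3.61 elsewhere, with 13 of 42 highest there. The 19 genes of the citric acid cycle and pyruvate dehydrogenase stood at 6.38, against 5.78 to 5.94, with 14 of 19 highest there. The 13 subunit genes of mitochondrial DNA, at 9.62, also lay within the range of the rest, 9.27 to 9.86.

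**Figure D1:**
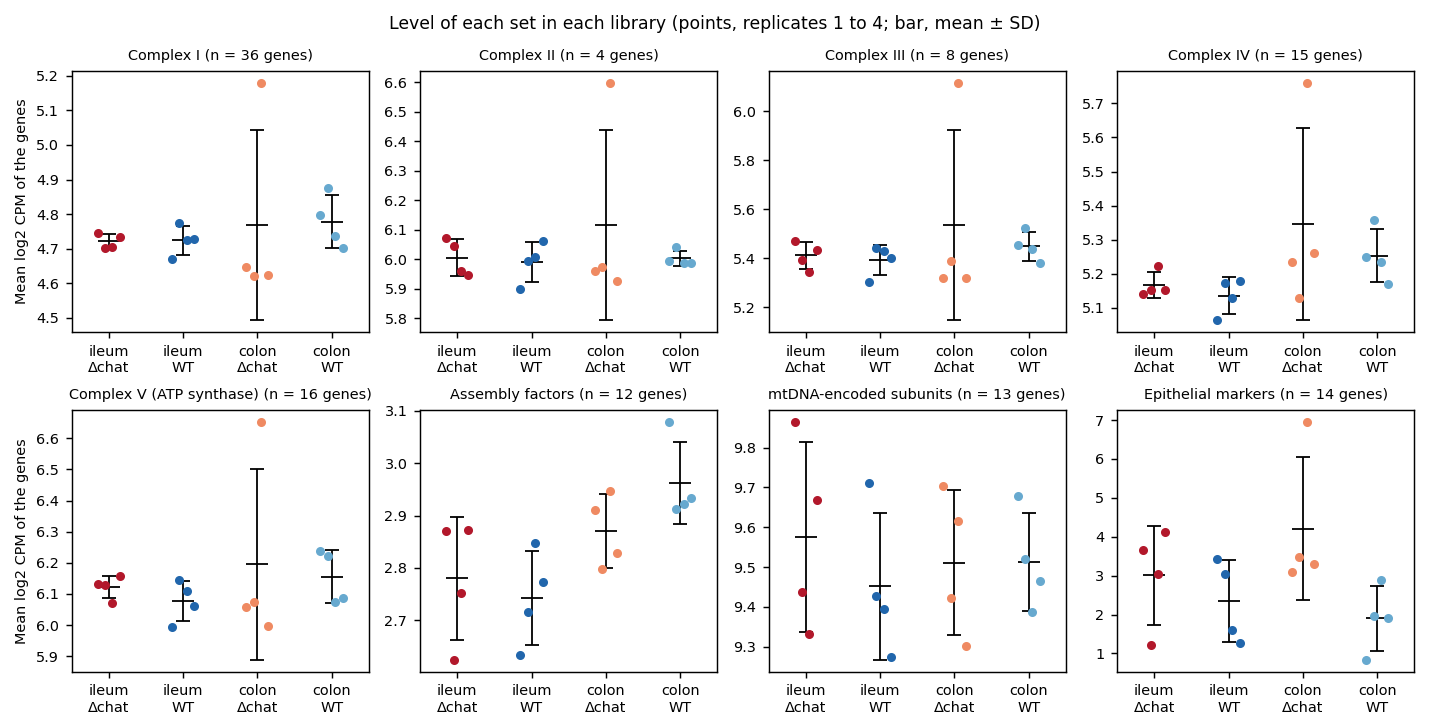
Mean log2 CPM of the genes of each complex, of the assembly factors, of the mtDNA-encoded subunits and of epithelial marker genes in each library; points are libraries, bars mean ± SD of 4, and each panel has its own axis. Colon Δchat replicate 3 stands above all other libraries in the 5 complexes and in the epithelial markers (6.96), and within their range in the assembly factors (2.95).

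The library labelled colon Δchat replicate 3 also held by far the most epithelial transcripts. The mean of 14 epithelial markers was 6.96 log2 CPM there and between 0.84 and 4.11 in the others, and these markers took 0.402% of its counts against at most 0.0452%. Krt8, an epithelial keratin, was at 1069 CPM in it. Cox7a1, the muscle-type isoform of a small complex IV subunit, was at 5.47 CPM there and at most 0.554 CPM elsewhere. The 5 striated muscle markers took 0.00197% of the counts there, against at most 0.000933% elsewhere. Their mean of -0.11 log2 CPM lay within the range of the other libraries, -1.18 to 0.09. The part that epithelial or muscle cells play in the members' levels was not tested. The main results below that rest on this library are given with and without it. In such bulk samples, fewer cells of a type and less RNA per cell cannot be told apart.

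Divided by the length of the longest annotated transcript, mean levels over the 16 libraries ran from 272 CPM per kb for Atp5b, the catalytic β subunit of ATP synthase, down to 0. Next in order were Cox4i1, a core nuclear subunit of complex IV (216 CPM per kb), Cox6a1 (214) and Atp5a1, the α subunit of ATP synthase (158). The ranges over libraries of Cox4i1 (196 to 321) and Cox6a1 (184 to 375) overlapped, so their order is not fixed. By class, over all members, the median per kb was 70.6 for complex V, 56.6 for complex IV, 50.6 for complex III, 41.0 for complex II, 28.1 for complex I and 5.31 for assembly factors. Within complex I the levels spread from 3.65 to 73.3 CPM per kb. The lowest, that of Ndufb2, was divided by a transcript length of 4371 bases. In CPM Ndufb2 averaged 15.97, above the 13.3 of Ndufb3, which stood at 17.4 CPM per kb with 763 bases. Which transcripts were present was not tested, so the levels and class medians per kb depend on the lengths used. Ndufb4 shares sequence with the pseudogene Ndufb4c, which had a like count (means of 168 and 176 per library), so its reads may have been split between them and its level is uncertain.

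The comparison of strains in colon asks whether loss of bacterial acetylcholine went with another level of these genes. No member passed: 0 of 92 was called, where 0.00682% of all genes tested were, and 2 of 92 had an unadjusted p under 0.05, where 13.3% of all genes did. DESeq2 and limma-voom also called 0. For 91 of 92 members the 95% interval lay within 1 log2 unit of no change (76.8% of all genes). The groups did not overlap for 3 of 92 members (7.31% of all genes): Cox4i2, Ndufa4 and Atp5d. The median log2 fold change of the members was 0.04, beside 0.01 for all genes.

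The members closest to the threshold belonged to complex IV. Cox4i2, the hypoxia-associated form of its regulatory subunit, known from lung and vascular wall cells, was at 10.3, 6.25, 6.26 and 12.2 CPM in colon Δchat and at 5.53, 5.43, 5.79 and 4.63 CPM in colon WT. All Δchat libraries were above all WT ones, but replicates 2 and 3 only slightly; the difference was 0.72 ± 0.24 (adjusted p = 0.324). Ndufa4, first described in complex I and now counted to complex IV, was at 34.9, 37.4, 45.6 and 32.5 CPM in colon Δchat and at 47.9, 55.4, 46.9 and 47.2 CPM in colon WT. The groups were apart by little more than 1 CPM at their nearest libraries, and the difference was -0.38 ± 0.12 (adjusted p = 0.324). Ndufa4l2, its paralogue and a known target of hypoxia-inducible factor, was at 20.0, 12.7, 13.7 and 19.6 CPM in colon Δchat and at 11.1, 13.1, 15.1 and 10.04 CPM in colon WT, with a difference of 0.43 ± 0.19 (adjusted p = 0.377; 0.49 ± 0.20 without replicate 3). For Ndufa4l2 the groups overlapped, and as for Cox4i2 replicates 1 and 4 of Δchat were the highest.

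Pericyte markers were highest in the same libraries. The mean of 6 such markers was 6.49, 5.85, 6.33 and 6.78 log2 CPM in colon Δchat and 5.89, 6.06, 6.26 and 5.51 log2 CPM in colon WT. Among them Rgs5 was at 457, 308, 430 and 622 CPM in colon Δchat against 308, 299, 380 and 252 CPM in colon WT. All 6 had positive differences, of which 0 were called and 3 had an unadjusted p under 0.05, and their part in the levels of Cox4i2 and Ndufa4l2 was not tested.

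Of the other members with the smallest p in colon, none passed. Sdhd, a membrane anchor of complex II, was at 43.7, 50.4, 83.6 and 47.8 CPM in Δchat and at 41.1, 44.2, 42.2 and 44.4 CPM in WT, a difference of 0.41 ± 0.20 (adjusted p = 0.414). Atp5d, the δ subunit of ATP synthase, was at 97.4, 99.2, 140 and 93.8 CPM in Δchat and at 91.97, 90.7, 89.7 and 91.0 CPM in WT, a difference of 0.26 ± 0.14 (adjusted p = 0.441). Replicate 3 was by far the highest for both, and without it the differences were 0.14 ± 0.08 for Sdhd and 0.09 ± 0.07 for Atp5d. Cox6a1, Ndufc2, Ndufb8 and Uqcr10 followed, with differences of 0.34, 0.23, 0.30 and 0.37 and adjusted p between 0.530 and 0.558; without replicate 3 the differences lay between -0.01 and 0.05.

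Without colon Δchat replicate 3, most of the members' positive differences in colon turned negative. With it, 55 of 92 differences were positive; without it, 12 of 92 were, and the median was -0.11. Again 0 members were called, and 21 of 92 had an unadjusted p under 0.05 (12.2% of all genes did), of which 19 were lower in Δchat. Complex I was then lower in 32 of 36 genes and complex V in 15 of 16. The smallest p without it were those of Ndufa4 (-0.50 ± 0.09, adjusted p = 0.174), Cox4i2 (0.84 ± 0.23, adjusted p = 0.267) and Ndufa3 (-0.37 ± 0.10, adjusted p = 0.269), a small accessory subunit of complex I. Ndufa4 and Cox4i2 thus kept their directions with and without this library.

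Markers of epithelium, plasma cells and macrophages also moved with strain in colon. The mean of 14 epithelial markers was 3.09 to 6.96 log2 CPM in colon Δchat and 0.84 to 2.89 log2 CPM in colon WT. These groups did not overlap, with or without replicate 3. All 14 had positive differences, 13 of them with an unadjusted p under 0.05. The mean of 9 plasma cell markers was 7.93, 8.05, 8.15 and 7.79 log2 CPM in colon Δchat and 8.53, 9.27, 8.67 and 9.09 log2 CPM in colon WT, so that the groups did not overlap. All 9 had lower values in Δchat with an unadjusted p under 0.05. The mean of 8 macrophage markers was 5.30, 6.25, 5.64 and 5.95 log2 CPM in colon Δchat and 4.91, 5.38, 5.23 and 5.02 log2 CPM in colon WT, and all 8 had positive differences with an unadjusted p under 0.05. In each of these lists edgeR called 0, with or without replicate 3, and limma-voom 0. DESeq2 called 8 plasma cell markers lower, 1 macrophage marker higher and 1 epithelial marker higher. Over all 14660 genes it called 134 higher and 174 lower. The part of these cell types in the members' differences was not tested.

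**Figure D2:**
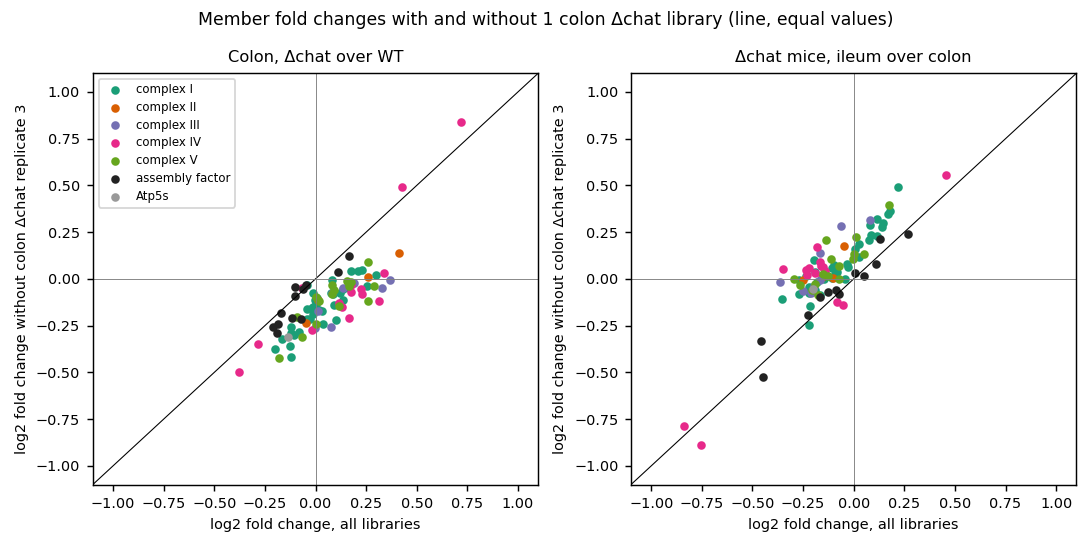
Log2 fold change of each member tested with all libraries (x axis) and without colon Δchat replicate 3 (y axis), for Δchat over WT in colon and for ileum over colon in Δchat mice; colours are complexes and the line marks equal values. Most subunits lie below the line in the left panel, where the median is 0.04 with that library and -0.11 without it, and above it in the right panel, where the median is -0.14 with it and 0.03 without it; assembly factors lie near the line.

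In ileum, where no library stood apart in this way, the differences between strains were small. Again 0 of 92 members were called (0.0207% of all genes), 0 by DESeq2 and limma-voom too, and 3 of 92 had an unadjusted p under 0.05 (10.9%). The 95% interval lay within 1 log2 unit of no change for 91 of 92 (79.1%), and the median absolute log2 fold change was 0.06, beside 0.14 for all genes. Complex I averaged 4.72 ± 0.02 log2 CPM in ileum Δchat and 4.72 ± 0.04 in ileum WT, and complex V 6.12 ± 0.04 in ileum Δchat and 6.08 ± 0.07 in ileum WT (SD, n = 4 each).

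The smallest p in ileum was that of Ndufa4l2, at 14.8, 17.8, 19.2 and 11.6 CPM in Δchat and 8.99, 10.4, 9.69 and 13.3 CPM in WT. Replicate 4 of Δchat lay within the WT range, and the difference was 0.56 ± 0.19 (adjusted p = 0.325). Sdhb, the iron-sulfur subunit of complex II, was at 51.1, 45.3, 42.2 and 40.9 CPM in Δchat and at 48.0, 50.4, 52.7 and 51.6 CPM in WT, a difference of -0.20 ± 0.08 (adjusted p = 0.395). Here replicate 1 of Δchat lay among the WT libraries. Atp5s averaged 2.81 ± 0.39 CPM in Δchat and 3.84 ± 0.62 CPM in WT (SD, n = 4 each), a difference of -0.47 ± 0.19 (adjusted p = 0.432). Sdhaf2, which attaches flavin to Sdha, differed by 0.14 ± 0.07 (adjusted p = 0.495). The next were Ndufb5, Ndufa1, Cox5a, Cox4i2, Ndufa5 and Sdhaf4, with adjusted p between 0.505 and 0.572 and differences of 0.14, -0.23, -0.16, 0.44, -0.18 and -0.26. Groups did not overlap for 4 of 92 members (7.19% of all genes), namely Atp5s, Sdhaf2, Ndufb5 and Ndufc2. Cox4i2 and Ndufa4l2 thus had positive differences in both tissues, without passing in either. The pericyte markers stood at 5.12, 5.52, 5.86 and 5.19 log2 CPM in ileum Δchat and at 5.54, 4.83, 5.23 and 5.85 log2 CPM in ileum WT; these groups overlapped, with replicate 3 the highest in Δchat, as for both genes. The plasma cell markers stood at 9.55, 8.95, 9.11 and 9.33 log2 CPM in ileum Δchat and at 9.57, 10.17, 9.52 and 9.67 log2 CPM in ileum WT. In Δchat, 7 of 9 were lower at an unadjusted p under 0.05. Of these markers edgeR called 0 and DESeq2 2, and DESeq2 called 244 of all 14496 genes lower. The part of plasma cells was not tested.

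Between tissues, a few members passed. In mice with the WT strain, 4 of 92 members were called in ileum against colon, all lower in ileum, where 28.8% of all genes were called and 15.1% were called lower. The 95% interval lay within 1 log2 unit of no change for 88 of 92 members (65.1% of all genes). The groups did not overlap for 15 of 92 (34.9%), of which 13 were lower in ileum. The median log2 fold change was -0.06 for members and -0.04 for all genes, and 69 of 92 members were lower in ileum. Assembly factors were lower in 11 of 12, complex V in 13 of 16, complex I in 27 of 36 and complex II in 2 of 4.

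The largest differences that passed were those of a pair of assembly factors. Sdhaf1, which helps to place iron-sulfur clusters in Sdhb, was at 10.3, 8.48, 11.3 and 10.5 CPM in ileum WT and at 19.6, 15.8, 15.1 and 19.8 CPM in colon WT. Every ileum library lay below every colon library, and Sdhaf1 fell by 0.79 ± 0.19 on the log2 scale (1.73-fold lower; adjusted p = 0.00779). Ndufaf4, which acts in building complex I, was at 8.87, 7.70, 11.3 and 11.1 CPM in ileum WT and at 19.6, 14.6, 13.0 and 13.9 CPM in colon WT. Its groups did not overlap either, with colon replicate 1 well above the rest, and it fell by 0.65 ± 0.17 (1.57-fold lower; adjusted p = 0.0124).

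The other genes called, both of complex I, differed less. Ndufs1, the largest subunit of the arm that takes up electrons, was at 44.0, 47.9, 46.5 and 45.7 CPM in ileum WT and at 58.1, 50.9, 53.8 and 58.8 CPM in colon WT. It fell by 0.27 ± 0.08 (1.20-fold lower; adjusted p = 0.0271). Ndufb5, an accessory subunit of the membrane arm, was at 24.9, 27.6, 26.3 and 27.4 CPM in ileum WT and at 32.6, 31.2, 34.5 and 31.0 CPM in colon WT. It fell by 0.29 ± 0.10 (1.22-fold lower; adjusted p = 0.0403). Neither gene's groups overlapped. With the mouse as a block, both missed the threshold (adjusted p = 0.0664 for each), and Sdhaf1 and Ndufaf4 stayed called. The same 2 were left with no filter on low counts and with a stricter one, while limma-voom called 10 members, all lower in ileum, the 4 above among them (37.1% of all genes were called). Left out in turn, single mice also ended calls: Sdhaf1 missed the threshold without WT mouse 1 or 4 (adjusted p = 0.0526 and 0.0502) and Ndufaf4 without WT mouse 1 or 2 (adjusted p = 0.110 and 0.0595). Ndufs1 missed it without WT mouse 1, 3 or 4 or Δchat mouse 4 (adjusted p between 0.0530 and 0.213), and Ndufb5 without any of the WT mice or Δchat mouse 1 or 4 (adjusted p between 0.0568 and 0.265). Without WT mouse 1, 0 members were called, and the share of all genes called was 11.2%. Without colon Δchat replicate 3, which enters this fit through the shared spread and scaling, 8 were called: the 4 above, with Cox7c, Ndufb2 and Ndufa6 lower and Ndufa8 higher in ileum (31.1% of all genes were called).

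Members just outside the threshold were Ndufb2 (-0.34 ± 0.13, adjusted p = 0.0568), an accessory subunit of complex I, and Cox7a2l (-0.19 ± 0.07, adjusted p = 0.0642), which links complexes III and IV. Cox6b2, a testis-type isoform, differed by -0.79 ± 0.33 (adjusted p = 0.0839), at 0.99 to 1.18 CPM in ileum WT against 1.48 to 2.60 CPM in colon WT. Cox4i2, Ndufa6 and Uqcrfs1, the last the Rieske iron-sulfur protein of complex III, had adjusted p between 0.131 and 0.146, with differences of -0.50, -0.26 and -0.25. Cell type markers also differed between tissues. In WT, 7 of 8 macrophage markers and 7 of 9 plasma cell markers were called higher in ileum. Of B cell markers 5 of 5 were called lower, and of 7 T cell markers 5 were called higher and 1 lower. What these cells contribute to the 4 genes was not tested. The plasma cell markers stood at 9.52 to 10.17 log2 CPM in ileum WT and at 8.53 to 9.27 log2 CPM in colon WT, without overlap, so that in a fit with a plasma cell score the score and the tissue cannot be told apart. That fit called 0 members and 7.94% of all genes, with differences of -0.78 for Sdhaf1, -0.44 for Ndufaf4, -0.38 for Ndufs1 and -0.36 for Ndufb5.

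**Figure D3:**
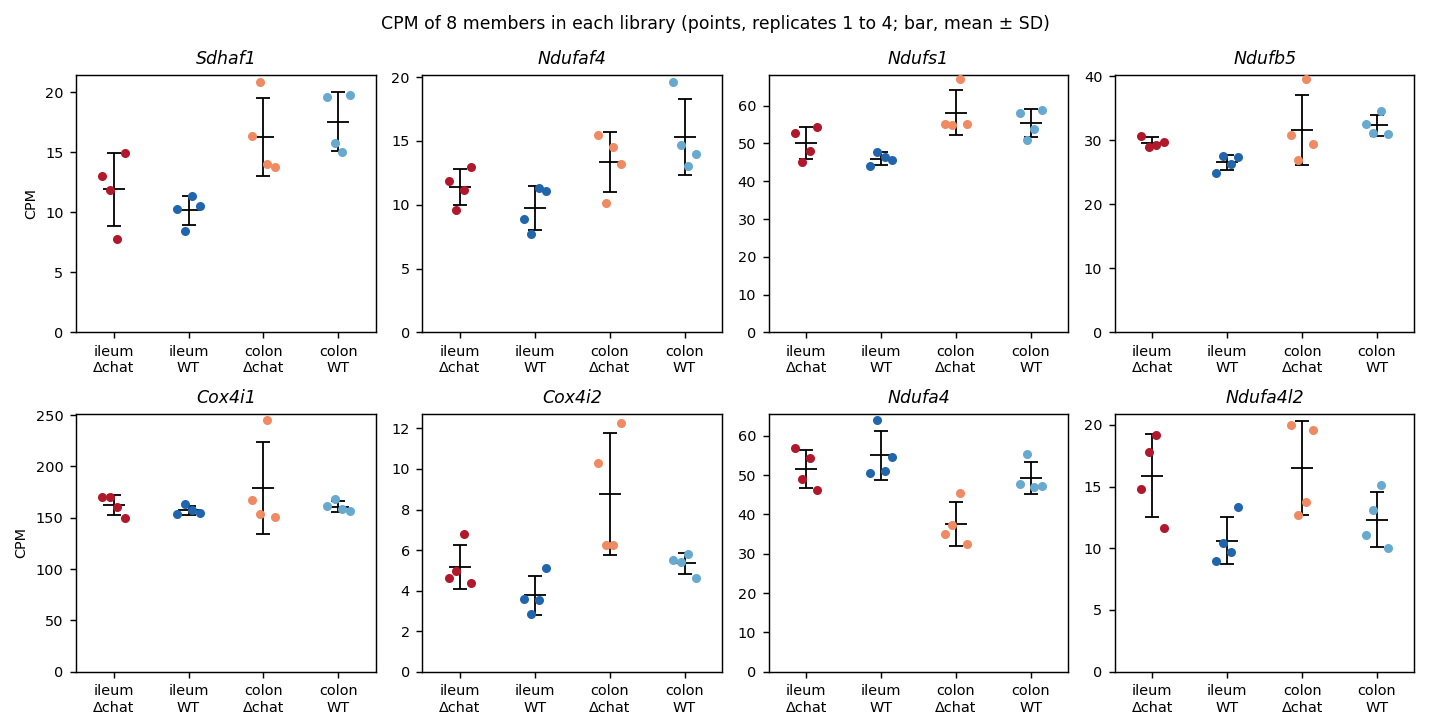
CPM of 8 members in each library of ileum and colon, Δchat and WT; points are libraries, bars mean ± SD of 4, and axes start at 0. Sdhaf1 and Ndufaf4 are lower in ileum WT (means of 10.2 and 9.74 CPM) than in colon WT (17.6 and 15.3 CPM), and Ndufa4 is lowest in colon Δchat (37.6 CPM).

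In mice with the Δchat strain, 2 of 92 members were called between ileum and colon, 1 in each direction, where 13.3% of all genes were called. The interval lay within 1 log2 unit of no change for 90 of 92 (68.5% of all genes), and groups did not overlap for 2 of 92, Ndufa4 and Ndufs1 (15.5% of all genes). Ndufa4 was at 56.8, 48.9, 54.3 and 46.3 CPM in ileum Δchat and at 34.9, 37.4, 45.6 and 32.5 CPM in colon Δchat. Every ileum library was above every colon one, if only just above colon replicate 3, and it rose by 0.46 ± 0.11 (1.37-fold; adjusted p = 0.0146). Cox4i2 was at 4.64, 4.96, 6.77 and 4.37 CPM in ileum Δchat and at 10.3, 6.25, 6.26 and 12.2 CPM in colon Δchat. It fell by 0.75 ± 0.24 (1.69-fold lower; adjusted p = 0.0487), with ileum replicate 3 above 2 of the colon libraries. The call of Cox4i2 was lost with the mouse as a block (adjusted p = 0.142). It was also lost without the Δchat mouse of replicate 1, 2 or 4 (adjusted p = 0.187, 0.0703 and 0.240) and without any of the WT mice (adjusted p between 0.0554 and 0.0850), and that of Ndufa4 without replicate 1 or 2 (adjusted p = 0.0894 and 0.0519).

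Most pericyte markers were also lower in ileum in these mice. Of 6, 3 were called lower in ileum Δchat than in colon Δchat, and 5 of 6 were lower. Kcnj8, which encodes a potassium channel of pericytes, had the largest difference, -2.09, beside a median of -0.70 for the 6. It was at 2.81, 4.30, 5.79 and 4.03 CPM in ileum Δchat and at 16.5, 11.96, 19.9 and 24.3 CPM in colon Δchat. Pericyte markers were not alone in this. Of 6 fibroblast markers, 6 were lower in ileum (median -0.99, 1 called). Of 8 smooth muscle markers, 8 were lower (median -0.47, 1 called). The part of pericytes, fibroblasts or smooth muscle in the level of Cox4i2 was not tested. Of 9 plasma cell markers, 9 were called higher in ileum Δchat. With a plasma cell score in the fit, the differences of Ndufa4 and Cox4i2 turned to -0.03 and 0.06, and neither was called (1.21% of all genes were). That score did not overlap between tissues, at 8.95 to 9.55 log2 CPM in ileum Δchat and 7.79 to 8.15 log2 CPM in colon Δchat, so that it and the tissue cannot be told apart.

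No other member passed between tissues in Δchat mice. Ndufb7 (-0.22 ± 0.09), Ndufs1 (-0.21 ± 0.08), Cox6b2 (-0.84 ± 0.33) and Sdhaf1 (-0.45 ± 0.19) had adjusted p between 0.101 and 0.127, and between 0.103 and 0.264 without colon Δchat replicate 3. Ndufv2, Ndufaf3, Uqcrc2 and Ndufaf1 had adjusted p between 0.194 and 0.223, and between 0.292 and 0.564 without that library. The members' median was -0.14, beside -0.02 for all genes, with 69 of 92 lower in ileum. Without colon Δchat replicate 3 the median was 0.03, 58 of 92 were higher in ileum, and 4 were called (11.1% of all genes were). Those higher in ileum were Ndufa4 (0.55 ± 0.10, adjusted p = 0.00524), Ndufa1 (0.49 ± 0.13, adjusted p = 0.0236) and Ndufa8 (0.36 ± 0.09, adjusted p = 0.0263), of which Ndufa1 and Ndufa8 are small subunits of complex I. Cox4i2 was lower (-0.89 ± 0.24, adjusted p = 0.0291).

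**Figure D4:**
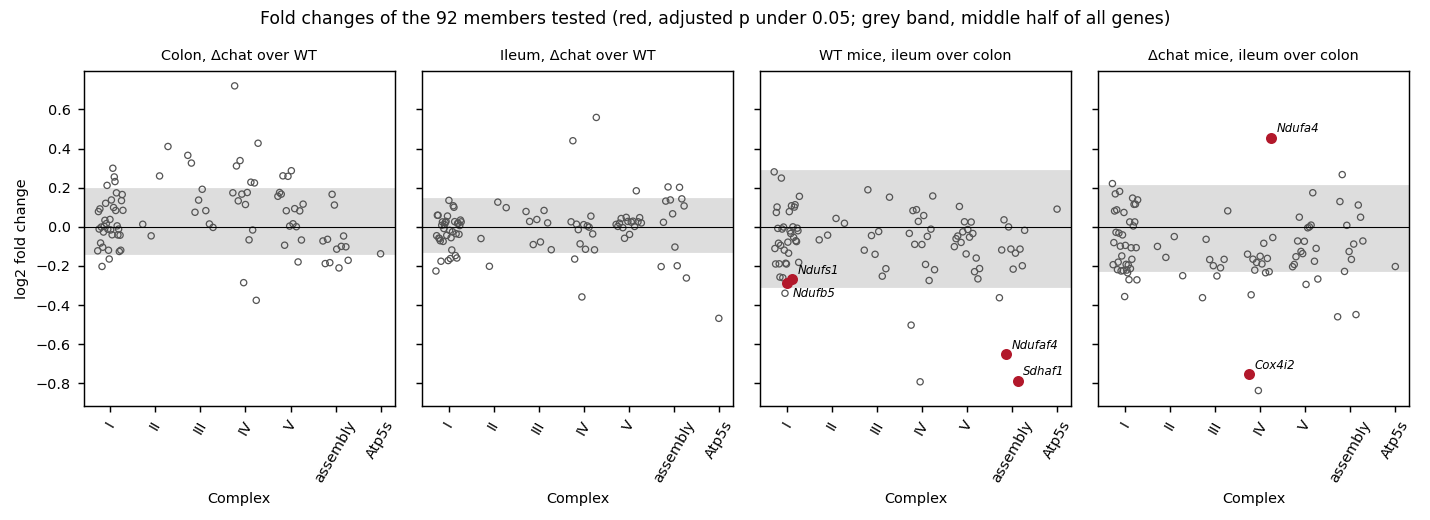
Log2 fold changes of the 92 members tested, by complex, in 4 comparisons; red points passed an adjusted p of 0.05 and the grey band holds the middle 50% of all genes. No member passed in the strain comparisons, 4 passed between tissues with the WT strain, all lower in ileum, and 2 with the Δchat strain.

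Whether the strain effect differed between tissues was tested as an interaction over the 16 libraries. Here 0 of 92 members were called (0.0592% of all genes), 0 by DESeq2 and limma-voom too, and 1 of 92 had an unadjusted p under 0.05 (7.72%). That was Sdhaf2, whose strain effect was higher in ileum by 0.23 ± 0.10 (adjusted p = 0.627). Ndufa4 followed with 0.30 ± 0.16 (adjusted p = 0.640) and Ndufaf4 with 0.42 ± 0.24 (adjusted p = 0.645). For Atp5k, Cox5a, Ndufb5, Ndufb8, Ndufb3, Cox6a1 and Uqcrc2 the adjusted p was between 0.657 and 0.689. Of the members, 37 of 92 had a positive interaction with all libraries, and 76 of 92 without colon Δchat replicate 3, with 0 called in either case. Without it the interaction was 0.17 ± 0.10 for Sdhaf2 and 0.38 ± 0.14 for Ndufa4 (adjusted p = 0.877 and 0.759), and 7 of 92 members, all positive, had an unadjusted p under 0.05 (5.87% of all genes). Among the other genes named here it was 0.60 ± 0.20 for Atp5k and 0.29 ± 0.10 for Ndufb5, and the adjusted p lay between 0.725 and 0.955. The calls of Ndufa4 and Cox4i2 between tissues in Δchat mice, and of the 4 genes in WT mice, are therefore not shown to differ between strains.

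Where a subunit has tissue forms, the ubiquitous form prevailed in each group. Cox4i1 averaged 163 ± 9.65 CPM in ileum Δchat and 157 ± 4.61 CPM in ileum WT, and 179 ± 44.9 CPM in colon Δchat and 161 ± 5.17 CPM in colon WT (SD, n = 4 each); in colon Δchat, replicate 3 was at 246 CPM, and without it the strain difference in colon was -0.03 ± 0.08. Per kb it was at 216, against 7.87 for Cox4i2, and Ndufa4 at 79.3 against 14.8 for Ndufa4l2. Cox6b1 was at 82.1 CPM per kb and Cox6b2 at 2.28. Cox8a was at 69.1 to 131 CPM over the libraries, with Cox8b at most at 0.417 CPM and Cox8c at 0. Cox6a1 was at 105 to 214 CPM and Cox6a2 at most at 0.655 CPM. Cox7a2 was at 35.6 to 62.3 CPM, Cox7a2l at 127 to 170 CPM and Cox7a1 at most at 5.47 CPM, in colon Δchat replicate 3. Of the 3 genes for the c subunit of the rotor of ATP synthase, Atp5g2 averaged 93.3 ± 6.47 CPM in colon WT, Atp5g3 76.1 ± 4.15 CPM and Atp5g1 36.8 ± 3.32 CPM (SD, n = 4).

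Core subunits outside the calls were close across all groups. Sdha, the flavoprotein of complex II, averaged 166 ± 4.73 CPM in ileum Δchat and 170 ± 5.06 CPM in ileum WT, and 178 ± 26.4 CPM in colon Δchat and 178 ± 8.43 CPM in colon WT (SD, n = 4 each). Its strain difference was -0.06 ± 0.06 in ileum and 0.01 ± 0.12 in colon, or -0.11 ± 0.08 in colon without Δchat replicate 3, which was at 217 CPM. Atp5b averaged 502 ± 25.8 CPM in ileum Δchat and 493 ± 22.1 CPM in ileum WT, and 574 ± 130 CPM in colon Δchat and 515 ± 15.7 CPM in colon WT. The wide spread in colon Δchat came with replicate 3, at 770 CPM beside 508 to 509 CPM in the other 3. In ileum, the strain differences of Ndufv1, Uqcrc1, Uqcrfs1, Atp5a1 and Atp5b lay between 0.00 and 0.08, and that of Cox5a, a small subunit of complex IV, was -0.16 ± 0.08. In colon those of the same 6 lay between 0.08 and 0.31, and between -0.12 and -0.01 without replicate 3.

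No subunit gene of the mitochondrial genome itself was called by edgeR. Of its 13 genes, 0 were called in each of the 5 comparisons, where 28.8% of all genes were called between tissues with the WT strain. Unadjusted, 2 had a p under 0.05, both lower in ileum with the WT strain. There DESeq2 called 1 and limma-voom 2 of the 13 lower. Of all 15198 genes there, 6213 had an unadjusted p under 0.05 by edgeR. DESeq2 called 2460 of them lower and limma-voom 3053. In the other 4 comparisons none of the 13 genes had such a p or was called by any of the 3 tools. The share of the 13 genes in all counts was 1.72 to 2.66%. Their mean level was 9.57 ± 0.24 log2 CPM in ileum Δchat and 9.45 ± 0.18 in ileum WT, and 9.51 ± 0.18 in colon Δchat and 9.51 ± 0.12 in colon WT (SD, n = 4 each).

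Of the other genes of the pathway, some were called between tissues. Over both directions, their shares were near or below the 28.8% (WT) and 13.3% (Δchat) of all genes. In both strain comparisons and the interaction, edgeR called 0 in each list. Unadjusted, 0 to 5 genes of a list had a p under 0.05. DESeq2 and limma-voom also called 0, except for 3 regulators that DESeq2 called higher in ileum Δchat. These were Ppargc1b, Twnk and Yy1, named after their values were seen. Over all genes, DESeq2 called 131 of 14496 higher in that comparison. With the WT strain, 7 of 22 genes of electron carriers and of enzymes feeding the chain were called in ileum against colon, 2 higher and 5 lower. Prodh, which oxidizes proline, rose by 0.83 ± 0.17 and Coq8a, needed to make ubiquinone, fell by 1.63 ± 0.35. Of 42 assembly factors outside the naming rule, 1 was higher (Cmc2, 0.53 ± 0.14) and 6 were lower, among them Lrpprc, which stabilizes mitochondrial mRNA (-0.49 ± 0.11), and Coa7 (-0.61 ± 0.15). Of 21 genes of mitochondrial DNA upkeep and of transcription of the chain, 6 were lower and 0 higher, where 15.1% of all genes were called lower. Tfam, the packaging and transcription factor of mitochondrial DNA, fell by 0.88 ± 0.19, Polg, its polymerase, by 0.41 ± 0.08 and Gabpb2 by 0.40 ± 0.08. Of 78 mitochondrial ribosomal proteins, 8 were lower and 0 higher, led by Mrpl50 (-0.64 ± 0.10). Of 19 genes of the citric acid cycle and pyruvate dehydrogenase, 2 were higher, Mdh2 (0.50 ± 0.12) and Idh2 (0.42 ± 0.14).

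With the Δchat strain, 4 genes of these lists were called between tissues. Gpd2, the glycerol phosphate shuttle enzyme, fell by 0.49 ± 0.12 and Coq8a by 1.19 ± 0.35 in ileum, and of the citric acid cycle Dld was lower (-0.29 ± 0.07). Of the regulators, Ppargc1a, a coactivator of mitochondrial biogenesis, fell by 2.24 ± 0.57. It was at 1.44, 0.490, 1.59 and 1.84 CPM in ileum Δchat and at 3.75, 2.70, 15.2 and 3.93 CPM in colon Δchat, with the highest value in the epithelium-rich replicate 3. Without that library, neither Ppargc1a nor Dld was called, and of the citric acid cycle 2 genes were called higher in ileum, Mdh2 and Idh2. With all libraries, the other 42 assembly factors and 78 ribosomal proteins held 0 calls (6 of each had an unadjusted p under 0.05; DESeq2 called 1 and 0, limma-voom 0 and 1); without colon Δchat replicate 3, 1 ribosomal protein was called higher in ileum and 0 assembly factors were called. The difference between the strains in these counts was not tested beyond the interaction, which called none of these genes.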

How the data were processed

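The authors deposited estimated counts per gene for 16 libraries, for which the submitters' processing notes name cutadapt 5.0, Salmon 1.4.0 and the build GRCm39; 34.8 to 40.7% of values per library were not whole and were rounded here. Groups followed the titles. Symbols, biotypes and transcript lengths came from GENCODE M21, with older names (Atp5a1, Atp5b and Atp5g1 to Atp5g3 are now Atp5f1a, Atp5f1b and Atp5mc1 to Atp5mc3). The 542 genes without a symbol took at most 0.105% of counts. In R 4.3.3, edgeR 4.0.16 (filterByExpr, TMM, robust quasi-likelihood, 2-sided) compared strains in each tissue over 8 libraries, and tissues and the interaction over 16, with p-values adjusted by Benjamini-Hochberg over every gene in the fit (14660 in colon, 14496 in ileum and 15198 over both). Log2 CPM used a prior count of 2. Fits were tested on simulated data. Libraries of 1 strain with the same number were taken to come from the same mouse, from the library names and the 4 mice per strain. Their residuals correlated between -0.18 and 0.27. Those of same-numbered libraries of different strains in a tissue correlated between -0.27 and 0.33, so the residuals do not bear out the pairing. Numbers do not pair mice across strains. Replicates were separate mice within a tissue.

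The members and lists were chosen with earlier results of these data known. Named were all members called, the 10 of smallest p where fewer than 10 passed, paralogue pairs, core subunits, and up to 3 called genes per direction of each other list; a member these rules select is not reported here. Alternatives, including DESeq2 1.42.0 and limma 3.58.1 (voom with quality weights), covered scaling, filters, covariates, blocks and left-out libraries or mice; the removal of colon Δchat replicate 3 alone in the fits over 16 libraries was added after the data had been seen. Amino acid sequences were not used here.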

Additional observations from a re-analysis of the deposited data

Results flagged for a closer look

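In groups of 4 libraries, a value was taken up here where the gap of the extreme library to its neighbour, as a share of the group's range, was above Dixon's 95% critical value. This was so in 10 of 64 groups examined. The groups share libraries, and the genes among them were called or picked beforehand, so the count cannot be set against a rate by chance. Colon Δchat replicate 3 was the highest of its group for complex I (gap share 0.953), complex II (0.930), complex III (0.911), complex V (0.882), Ndufs1 (0.972) and Cox7a1 (0.953). Its epithelial markers stood at 6.96 log2 CPM, beside 3.09 to 3.48 in the other colon Δchat libraries, and their part in these values was not tested. Colon WT replicate 1 was the highest for the assembly factors (0.881), at 3.08 log2 CPM beside 2.91 to 2.93. Colon WT replicate 2 was the highest for complex II (0.871) and for Ndufa4 (0.883), at 55.4 CPM beside 46.9 to 47.9 CPM. Ileum Δchat replicate 3 was the highest for complex IV (0.846), at 5.22 log2 CPM beside 5.14 to 5.15.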

How the results depend on the processing

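In both strain comparisons and the interaction 0 members were called under each of 19 alternatives per comparison, the replicate block among them. In WT mice between tissues, the 4 calls became 2 with no filter, 2 with the stricter filter, 10 with limma-voom, 0 with a plasma cell score and 2 with the mouse as replicate block, and ranged from 0 to 8 when a library or mouse was left out. In Δchat mice the 2 calls became 1 with the stricter filter, 1 without mitochondrially encoded genes, 0 with the plasma cell score and 1 with the replicate block, and ranged from 0 to 4 on leaving out. The plasma cell score turned Ndufa4 to -0.033 and Cox4i2 to 0.058 in Δchat mice; for the other 4 called genes the direction held under the 19 alternatives. The replicate block changed no call other than those given in the report. Settings with a smaller change in the count of calls are not listed, and Ndufb5 missed the threshold under 14 of the 19 alternatives. The median of all members moved with several settings: in colon to -0.27 with an epithelial score and 0.32 with the plasma cell score, in ileum to 0.062 with that score, between tissues to -0.19 (WT) and -0.34 (Δchat) with it, and for the interaction to 0.12 with limma-voom and 0.10 with the epithelial score. Leaving out gave medians of -0.20 to 0.054 in Δchat mice between tissues and -0.12 to 0.093 for the interaction. The cause was not tested. The plasma cell score did not overlap between the groups compared within colon or within either strain, so that it and the group cannot be told apart there. In colon the same holds for the epithelial score. Its markers averaged 3.09 to 6.96 log2 CPM in colon Δchat and 0.84 to 2.89 log2 CPM in colon WT. Members at few CPM, such as Cox6b2 and Atp5s, had the widest errors.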

Other observations

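Of the 111 genes with these prefixes, 13 were not protein-coding by the annotation and were left out of the members. All but 2 of them averaged at most 0.27 counts per library. Ndufb4c averaged 176 counts and Ndufb1-ps 243 counts. Ndufb1-ps was at 9.57, 9.75, 11.6 and 10.9 CPM in colon Δchat and at 16.2, 19.8, 12.1 and 13.5 CPM in colon WT, with every Δchat library below every WT library; the difference was -0.54 ± 0.17 (edgeR adjusted p = 0.313). It fell by 0.56 ± 0.15 in ileum WT against colon WT (adjusted p = 0.0148). This gene was chosen after its values were seen.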
